A study of Homo sapiens with 2 samples.

Results

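The 9 genes described here encode DDIT4, the 3 sestrins (SESN1, SESN2 and SESN3) and the regulators DEPTOR, TSC1, TSC2, RHEB and AKT1S1 of the growth-controlling kinase complex mTORC1. They were taken by symbol from the 25268 symbols that both deposited tables listed, and all 9 were found. C4-2B is a castration-resistant prostate cancer cell line of the LNCaP lineage, and C4-2B MDVR is its enzalutamide-resistant form. The groups were C4-2B MDVR cells given 20 µM Indocin, the cyclooxygenase inhibitor indomethacin, and C4-2B MDVR cells given the vehicle DMSO, each for 3 days, in medium that held 20 µM of the antiandrogen enzalutamide in both groups. Each group had 1 mRNA library, so the values below have no replicate check, and no test, error or p-value across cultures could be given.

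The mTORC1 complex couples protein synthesis and growth to amino acids, growth factors and stress. It is switched on at the lysosome by the small GTPase RHEB and held off by the TSC1-TSC2 complex, which turns RHEB to its inactive form. DDIT4, also called REDD1, is a stress-induced protein that lowers mTORC1 activity through TSC1-TSC2. The sestrins lower it through the GATOR complexes that govern the Rag GTPases, and SESN2 is a leucine sensor. DEPTOR and AKT1S1, also called PRAS40, are inhibitory proteins that bind the complex itself.

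Levels are FPKM, that is, fragment numbers divided by transcript length and by library size, as the authors computed them. The transcript lengths used were not given in the sources used here. Orders, sums, shares and ratios of level across different genes depend on those lengths and are only descriptive. Ratios are given as log2((Indocin + 1)/(DMSO + 1)) in FPKM, a scale that makes the fold of a low gene look smaller than it is. They were taken over the 11966 genes that averaged 1 FPKM or more across both libraries, called measured genes here. FPKM summed to 583096 in the Indocin library and 617510 in the DMSO library. The absolute read depth was unknown, but the steps between the lowest values gave a nearly equal worth of 1 fragment in the libraries (factor 1.013, which took 51.8% of 1335 low genes within 1%, against a median of 8.16% over the factors tried). All 10 prostate luminal markers looked at were detected, with summed levels of 1718 FPKM in the Indocin library and 2089 FPKM in the DMSO library. The luminal keratin gene KRT18 stood at 362.3 FPKM with Indocin and 412.7 FPKM with DMSO. Of 15 markers of leukocytes, endothelium, stroma, basal and neuroendocrine cells, 5 were listed at 0 in both libraries, CD3E, PECAM1, COL1A2, COL3A1 and INSM1, and only the macrophage marker CD68 and the collagen gene COL1A1 had a mean of at least 1 FPKM. These 15 summed to 12.7 FPKM in the Indocin library and 13.1 FPKM in the DMSO library.

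The stress-induced inhibitors DDIT4 and SESN2 were far higher in the Indocin library, SESN3 and SESN1 were moderately higher, and the core regulators TSC1, TSC2, RHEB and AKT1S1 differed little. With Indocin the order of levels from the highest was DDIT4, AKT1S1, RHEB, SESN2, TSC2, SESN1, SESN3, DEPTOR and TSC1. With DMSO it was the same except that SESN2 stood below TSC2 and SESN1. With 1 library per group it cannot be said which neighbours in this order differ beyond the spread between cultures, and in bulk RNA a change in all cells and a change in some of them cannot be told apart. All 9 genes passed the minimum mean. At 1.5-fold on the log2(FPKM + 1) scale, 3 of the 9 were higher in the Indocin library and none was lower, against 2.19% of all measured genes higher and 0.744% lower. At 2-fold, 2 of the 9 were higher and none lower, against 0.752% and 0.0418% of all measured genes. The median log2 ratio was 0.34 for the 9 genes and -0.02 for all measured genes, whose quartiles were -0.15 and 0.11. The 9 genes were chosen by the measured ratios of DDIT4 and SESN2 and by their place in the same pathway, so nothing about the group can be read from these shares or medians.

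**Figure D1:**
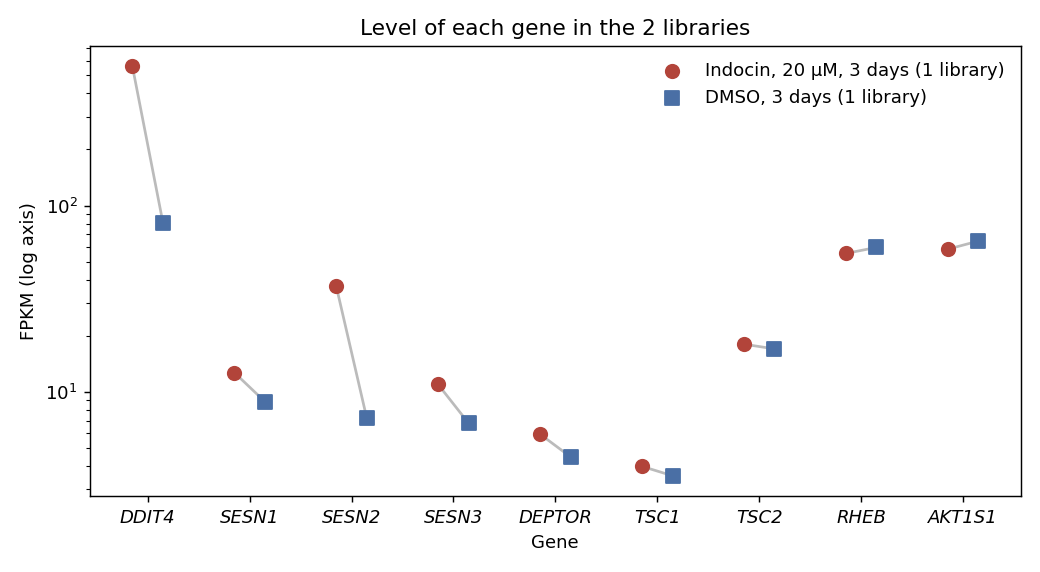
FPKM of each of the 9 genes on a log axis in the Indocin library (circles) and the DMSO library (squares), 1 library per group, joined by a line for each gene. DDIT4 (557.9 and 80.7 FPKM) and SESN2 (37.0 and 7.22 FPKM) are the genes whose points lie far apart.

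DDIT4 stood at 557.9 FPKM in the Indocin library and 80.7 FPKM in the DMSO library. This is a difference of 477.1 FPKM, a 6.91-fold higher level, and a log2 ratio of 2.77. Its ratio was the 6th highest of all measured genes. Its level ranked 136th among them in the Indocin library and 1164th in the DMSO library. DDIT4 had the highest level of the 9 genes in both libraries, at 10.1 times the FPKM of RHEB with Indocin and 1.35 times with DMSO. The related gene DDIT4L, a paralog that also lowers mTORC1 activity, stood at 2.11 FPKM with Indocin and 2.94 FPKM with DMSO (log2 ratio -0.34), so the paralogs lay on opposite sides of 0.

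SESN2 stood at 37.0 FPKM in the Indocin library and 7.22 FPKM in the DMSO library, a 5.12-fold higher level and a log2 ratio of 2.21, the 14th highest of all measured genes. Its level ranked 2539th with Indocin and 7815th with DMSO. SESN3 stood at 11.0 FPKM with Indocin and 6.79 FPKM with DMSO (1.62-fold, log2 ratio 0.62), just past 1.5-fold. With a pseudocount of 5 FPKM in place of 1 its log2 ratio was 0.44, short of 1.5-fold. SESN1 stood at 12.7 FPKM with Indocin and 8.87 FPKM with DMSO (1.43-fold, log2 ratio 0.47), short of 1.5-fold. The order of the family therefore differed between the libraries: SESN2 was the highest of the 3 with Indocin, and SESN1 was the highest with DMSO.

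The 3 sestrins together summed to 60.6 FPKM in the Indocin library and 22.9 FPKM in the DMSO library, a 2.65-fold higher sum. SESN2 made up 61.0% of that sum with Indocin and 31.6% with DMSO. SESN1 made up 21.0% and SESN3 18.1% with Indocin, against 38.8% and 29.7% with DMSO. With DMSO the 3 genes were near each other in FPKM, and with Indocin the FPKM of SESN2 exceeded that of SESN1 and SESN3 together. These shares depend on the transcript lengths used, and annotated SESN3 transcripts run from 607 to 9558 bases.

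**Figure D2:**
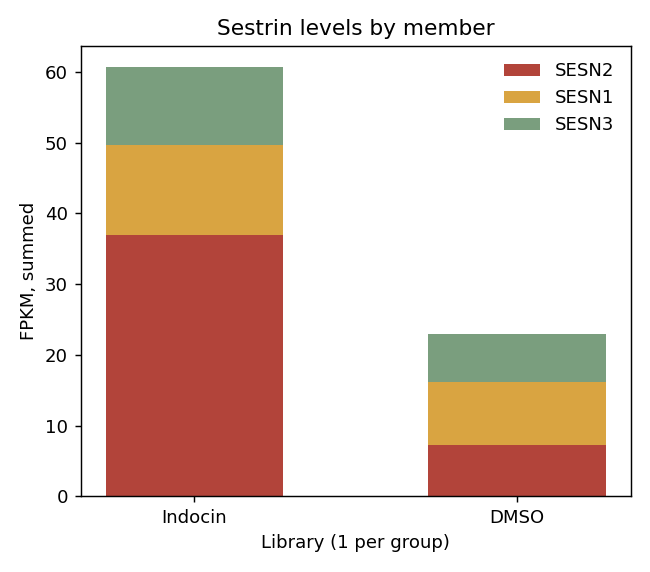
Stacked FPKM of SESN2, SESN1 and SESN3 in the Indocin library (left, sum 60.6 FPKM) and the DMSO library (right, sum 22.9 FPKM), 1 library per group. The SESN2 segment (37.0 FPKM with Indocin, 7.22 FPKM with DMSO) accounts for most of the difference in height.

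The genes nearest to DDIT4 in log2 ratio were ASNS, asparagine synthetase (322.6 FPKM with Indocin and 49.0 FPKM with DMSO, 2.69), the cystine transporter SLC7A11 (3.05) and the pseudokinase TRIB3 (152.4 FPKM with Indocin and 26.5 FPKM with DMSO, 2.48). Nearest to SESN2 were DDIT3, which encodes the stress transcription factor CHOP (105.4 FPKM with Indocin and 22.5 FPKM with DMSO, 2.18), KLHDC7B (2.24) and the neutral amino acid transporter SLC1A4 (11.6 FPKM with Indocin and 1.79 FPKM with DMSO, 2.17). Likeness here was the distance between log2 ratios over 2 libraries, and it says nothing beyond a like size of difference.

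The start-site windows of DDIT4 and SESN2, the pair past 2-fold, are printed with that of TSC2, the one gene among the 7 with a window that had a match to the composite C/EBP-ATF motif. Each holds 250 bases before to 50 after the RefSeq start (build GRCh38.p14), 5′ to 3′ on the gene's strand, with matches to any of 3 motifs in capitals. The motifs, searched on both strands, were the composite element TGATGNAA bound by ATF4 with C/EBP proteins, the forkhead motif GTAAACA and the hypoxia element core ACGTG. The DDIT4 window lies at chr10:72273674-72273973 on the + strand, that of SESN2 at chr1:28259268-28259567 on the + strand, and the first of the TSC2 windows at chr16:2047735-2048034 on the + strand.
DDIT4: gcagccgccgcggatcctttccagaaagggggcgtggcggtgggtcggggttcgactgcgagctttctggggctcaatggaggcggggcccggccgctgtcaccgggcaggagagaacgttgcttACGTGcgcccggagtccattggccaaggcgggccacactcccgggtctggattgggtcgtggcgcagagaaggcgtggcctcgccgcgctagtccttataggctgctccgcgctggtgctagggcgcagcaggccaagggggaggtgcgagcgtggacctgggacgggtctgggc
SESN2: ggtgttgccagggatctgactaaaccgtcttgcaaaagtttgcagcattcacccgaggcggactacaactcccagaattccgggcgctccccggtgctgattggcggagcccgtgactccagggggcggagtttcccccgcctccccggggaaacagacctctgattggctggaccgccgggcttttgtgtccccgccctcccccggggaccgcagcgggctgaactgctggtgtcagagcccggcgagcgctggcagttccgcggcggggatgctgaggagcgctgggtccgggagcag
TSC2: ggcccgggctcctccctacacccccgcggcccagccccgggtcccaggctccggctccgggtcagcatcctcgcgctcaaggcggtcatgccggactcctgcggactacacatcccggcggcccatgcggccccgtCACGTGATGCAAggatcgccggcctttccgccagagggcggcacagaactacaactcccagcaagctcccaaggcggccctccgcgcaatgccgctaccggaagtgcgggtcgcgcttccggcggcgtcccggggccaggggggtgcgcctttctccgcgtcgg

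The DDIT4 window held 1 hypoxia element core, at position -125 from the start, and the SESN2 window held none of the 3 motifs. In the TSC2 window the composite element began at position -110, and it overlapped 2 matches to the hypoxia core, 1 on each strand. The table had 10 windows for 7 of the 9 genes, and DEPTOR and AKT1S1 had no entry. The composite element was in 1 of the 10, the hypoxia core in 3 and the forkhead motif in 0, against 3.62%, 21.4% and 3.42% of 35116 windows of all genes. With 1 window kept per measured gene, 14 of 69 genes at least 2-fold higher with Indocin held the composite element (20.3%), and 140 of all 8908 did (1.57%). These shares are per gene, unlike the shares of all windows above, and not all of the 90 genes past 2-fold had a window. The genes were picked by their ratios, and a cause was not tested. DDIT4 and SESN2 were thus among the genes past 2-fold whose window lacks the composite element, which says nothing of sites outside the window. The windows of DDIT4 and SESN2 were 69.7% and 67.0% G or C and held 30 and 25 CpG dinucleotides, against medians of 58.7% and 14 over all windows. The SESN3 window was the lowest of the 10 on both counts, at 45.0% and 8.

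The transcripts of DEPTOR and AKT1S1, whose products bind and inhibit mTORC1 directly, showed small differences in opposite directions. DEPTOR stood at 5.94 FPKM in the Indocin library and 4.48 FPKM in the DMSO library (1.32-fold, log2 ratio 0.34). AKT1S1 stood at 58.3 FPKM with Indocin and 64.5 FPKM with DMSO (log2 ratio -0.14). Of all measured genes, 93.6% had a lower ratio than DEPTOR and 26.7% a lower ratio than AKT1S1. The FPKM of AKT1S1 was 9.82 times that of DEPTOR with Indocin and 14.4 times with DMSO. Neither reached 1.5-fold.

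The genes of the TSC complex were close to level between the libraries. TSC1 stood at 3.99 FPKM with Indocin and 3.55 FPKM with DMSO (log2 ratio 0.13), the lowest level of the 9 genes in both libraries. TSC2, which encodes the subunit that acts on RHEB, stood at 18.0 FPKM with Indocin and 17.0 FPKM with DMSO (0.08). The ratio of TSC2 to TSC1 was 4.52 with Indocin and 4.79 with DMSO. TSC2 overlaps NTHL1 and PKD1 on the opposite strand in the GENCODE annotation, which stood at 33.8 and 18.1 FPKM with Indocin and at 39.1 and 11.0 FPKM with DMSO. The strand setting of the counting was not given in the sources used here, so reads in those overlaps cannot be assigned with certainty. The same holds for AKT1S1, which overlaps TBC1D17 on the opposite strand (15.2 FPKM with Indocin and 11.3 FPKM with DMSO).

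RHEB, the activator of mTORC1, stood at 55.3 FPKM in the Indocin library and 59.6 FPKM in the DMSO library (log2 ratio -0.11). RHEB and AKT1S1 were the only members with a ratio below 0, and 33.0% and 26.7% of all measured genes had lower ratios. The FPKM of RHEB was 3.07 times that of TSC2 with Indocin and 3.50 times with DMSO. The 8 genes that encode inhibitors summed to 704.8 FPKM with Indocin and 193.1 FPKM with DMSO. DDIT4 made up 79.2% of that sum with Indocin and 41.8% with DMSO, and without it the sums were 146.9 and 112.4 FPKM in the same order. SESN2, whose ratio also served to choose the group, differed by 29.7 FPKM and made up most of that remaining gap. These sums therefore do not show a wider difference among the other inhibitors.

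**Figure D3:**
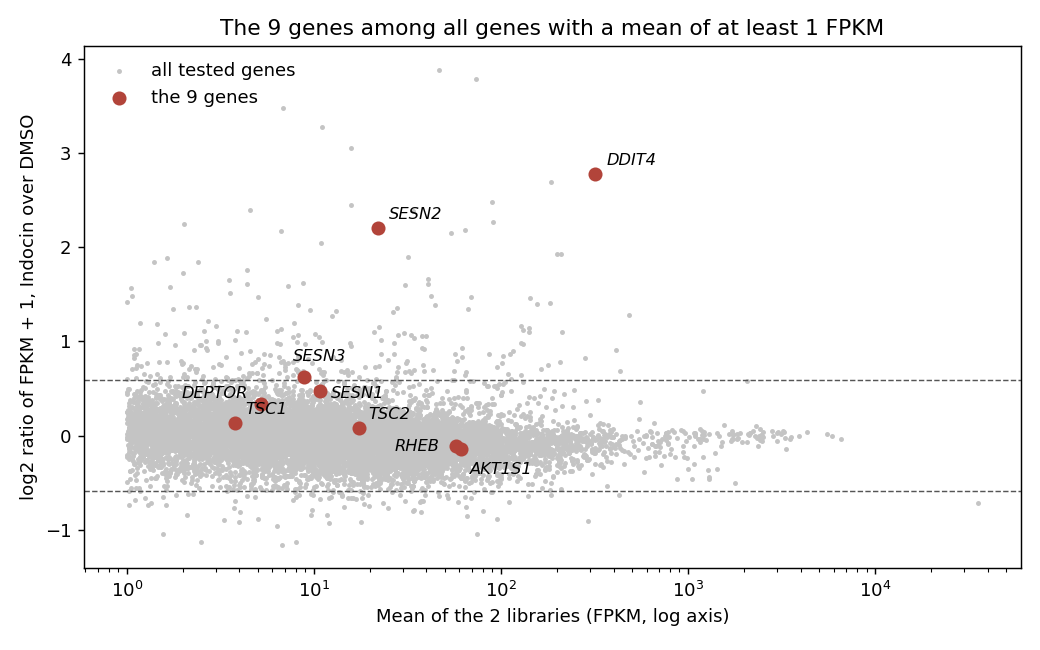
Log2 ratio of FPKM + 1, Indocin over DMSO, against the mean of the 2 libraries on a log axis, for 11966 measured genes (grey) and the 9 genes (red), with dashed lines at 1.5-fold. DDIT4 (2.77) and SESN2 (2.21) lie above the grey band, SESN3 (0.62) at the upper line, and TSC1, TSC2, RHEB and AKT1S1 inside the band.

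The rest of the mTORC1 pathway was described by lists written from general knowledge, with earlier results of these data known. The shares of these lists therefore describe the listed genes only, and nothing about the pathway as a whole can be read from them. Over 6 lists of complex subunits, inputs, amino acid sensing and outputs, 87 genes were measured, and 6 of them were 1.5-fold or more higher with Indocin (6.90%, against the 2.19% of all measured genes). None was lower by that much, and the median was 0.04. None of 9 mTOR complex subunits and assembly factors reached 1.5-fold. MTOR, the kinase, stood at 17.4 FPKM with Indocin and 16.6 FPKM with DMSO (0.07), and the scaffold RPTOR at 11.8 and 12.3 FPKM in the same order (-0.06). The furthest were the assembly factors TELO2 (-0.44) and TTI1 (-0.26) and the subunit MLST8 (0.23).

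None of 23 genes of the TSC partner and its upstream inputs reached 1.5-fold, with DDIT4L (-0.34) and the kinase subunit PIK3CA (0.29) among the furthest and a median of 0.07. Among 12 genes of the GATOR and KICSTOR complexes, the machinery on which the sestrins act, none reached 1.5-fold either. DEPDC5 (0.29) and SEH1L (-0.22) were among the furthest, and the median was 0.04. None of the 12 genes of the Rag GTPases, Ragulator and folliculin reached 1.5-fold, with FNIP2 (-0.28), RRAGC (0.19) and FNIP1 (0.16) the furthest and a median of 0.03.

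The genes past 1.5-fold were carriers and outputs. Of 13 amino acid sensors and carriers 3 were higher, all plasma membrane carriers of amino acids. SLC3A2, the heavy chain of the leucine transporter, stood at 226.5 FPKM with Indocin and 85.2 FPKM with DMSO (1.40), and its light chain SLC7A5 at 177.8 FPKM with Indocin and 78.9 FPKM with DMSO (1.16). The glutamine carrier SLC1A5 stood at 174.4 FPKM with Indocin and 88.6 FPKM with DMSO (0.97). Of 18 substrates and outputs 3 were higher. The lipid phosphatase and transcriptional coregulator LPIN1 stood at 21.2 FPKM with Indocin and 10.5 FPKM with DMSO (0.95). EIF4EBP1, the translation repressor that mTORC1 inactivates, stood at 203.6 FPKM with Indocin and 124.2 FPKM with DMSO (0.71), and PDCD4, another translation repressor, at 40.2 FPKM with Indocin and 24.6 FPKM with DMSO (0.69). The kinase gene RPS6KB1 stood at 8.68 FPKM with Indocin and 9.17 FPKM with DMSO (-0.07). The phosphorylation state of these proteins, by which mTORC1 activity is read, was not measured.

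Among 14 transcription factors reported to act on DDIT4 or the sestrins, 11 were measured, of which 3 were higher by 1.5-fold or more and none was lower by that much. These were DDIT3, CEBPB (102.7 FPKM with Indocin and 36.4 FPKM with DMSO, 1.47) and ATF4, the main factor of the integrated stress response (689.0 FPKM with Indocin and 283.9 FPKM with DMSO, 1.28). The forkhead factor FOXO3 stood at 22.2 FPKM with Indocin and 20.6 FPKM with DMSO (0.10) and the hypoxia factor HIF1A at 26.8 FPKM with Indocin and 24.8 FPKM with DMSO (0.11). The glucocorticoid receptor gene NR3C1, whose product induces DDIT4 in other settings, was listed at 0.117 FPKM with Indocin and 0.0137 FPKM with DMSO, under the minimum mean. Of 8 other reported negative regulators of mTORC1 signalling only TRIB3 passed 1.5-fold (2.48), with PINK1 (0.29) and SH3BP4 (0.25) next.

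**Figure D4:**
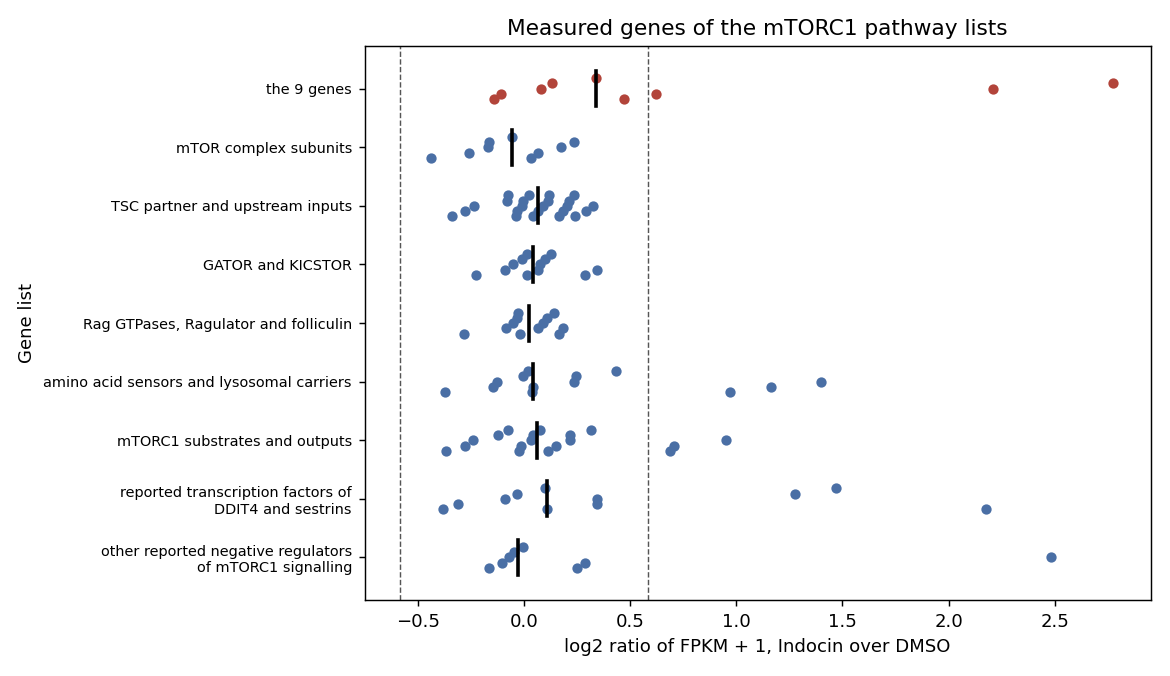
Log2 ratio of FPKM + 1, Indocin over DMSO, of each measured gene (points) in the 9 genes (red) and in each pathway list (blue), with the median of each list as a black bar and dashed lines at 1.5-fold. The points beyond the right line are DDIT4, SESN2 and SESN3 of the 9 genes, 3 amino acid carriers, 3 outputs, 3 transcription factors and TRIB3, and no point lies beyond the left line.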

How the data were processed

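Strand-specific mRNA libraries (KAPA Stranded mRNA-Seq kit on TRIzol RNA, per the labels' protocols) were sequenced, 1 from Indocin and 1 from DMSO cultures. The authors deposited FPKM for each gene symbol, per the file headers. Tools named in the submitters' processing notes are Cuffnorm, Cufflinks, StringTie, TopHat and bcl2fastq, and the genome build is hg19 (GRCh37). How each tool was used, its version, the gene models and the strandedness of counting are, in the sources used here, not given.

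FPKM are not counts, and each group had 1 library, so nothing was tested. Log2 ratios of FPKM + 1 were computed with pandas 2.3.3 and numpy 2.4.6 on Python 3.11.15, over genes that averaged 1 FPKM or more. Short RNA genes (2042 symbols, by the start of the symbol) were left out. A threshold of 1.5-fold, with 2-fold beside it, described size and is not a test. The calculation was run on simulated data with planted differences and no spread between cultures. That checks the code only and says nothing of the differences reported here. Alternatives were other pseudocounts, filters and scalings. All 9 members were named whatever their value. Of each pathway list the genes past 1.5-fold and the 3 largest ratios were named, and for DDIT4 and SESN2 the 3 genes nearest in ratio. Other pathway genes (MTOR, RPTOR, RPS6KB1, FOXO3, HIF1A, NR3C1 and KRT18) were named for their role after their values were seen. The members and lists were chosen with earlier results of these data known. Some genes of these lists are not reported here. Promoter windows are from RefSeq (GRCh38.p14), another build than that of the files, and were matched by symbol. A comparison of the sestrin proteins was planned and not run.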

Additional observations from a re-analysis of the deposited data

How the results depend on the processing

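The ratios of all 9 genes kept their sign with pseudocounts of 0.1 and 5 FPKM, with ratios centred on the median and with both libraries brought to one upper quartile or one FPKM sum. DDIT4 ranged between 2.72 and 2.84, SESN2 between 1.78 and 2.34, SESN1 between 0.35 and 0.54, and RHEB between -0.11 and -0.04. SESN3 fell short of 1.5-fold with a pseudocount of 5 FPKM (0.44). With a minimum mean of 5 FPKM, 8 of the 9 genes were measured, TSC1 being left out. The number of all genes at least 1.5-fold higher was 420 with a pseudocount of 0.1 FPKM, 126 with 5 FPKM and 168 with a minimum mean of 5 FPKM, against 262, and lower 188 and 36 with those pseudocounts and 59 with the same upper quartile, against 89. At 2-fold, 41 genes were higher with a pseudocount of 5 FPKM, against 90, and 22 lower with 0.1 FPKM, 0 with 5 FPKM, 3 with a minimum mean of 5 FPKM and 42 with short RNA genes kept, against 5. The share of higher genes among those past 2-fold was 71.0% with short RNA genes kept, against 94.7%. Among the amino acid sensors and carriers 1 gene was 1.5-fold lower with a pseudocount of 0.1 FPKM. The median of the mTOR complex subunits was 0.0083 with the same upper quartile, against -0.06. That of the other negative regulators was 0.0146 with the same sum and 0.0421 with the same upper quartile, against -0.03. The median of the transcription factors was 0.34 with a minimum mean of 5 FPKM, where fewer genes are measured, against 0.11. A minimum mean of 5 FPKM left 8939 measured genes and keeping short RNA genes gave 12043, against 11966. Those counts therefore cover other sets of genes. By its arithmetic a larger pseudocount draws ratios towards 0, most for low genes. The cause of any further change was not tested. The scaling alternatives shifted the median of all genes by under 0.1. No paired analysis was possible because each group had 1 library. Low genes such as TSC1 and DEPTOR rest on fewer fragments than DDIT4, and the absolute depth is unknown.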

Other observations

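RHEBL1, a paralog of RHEB that was in no list and was looked at because of its name, stood at 2.74 FPKM in the Indocin library and 1.21 FPKM in the DMSO library (log2 ratio 0.76), past 1.5-fold, at a level far below that of RHEB in both libraries. PKD1, which overlaps TSC2 on the opposite strand, had a log2 ratio of 0.67, against 0.08 for TSC2. Both were chosen after their values were seen.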
